A study of Mus musculus with 50 samples.

Results

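Endothelial and VEGF receptor genes are described here in the whole brains of mouse embryos that carried mutations of Gtf2i or Gtf2ird1. The genes were chosen by name: Kdr, Flt1, Pecam1, Cdh5, Tek, Tie1, Cldn5, Eng, Esam and Emcn. Of these 10 genes, 9 were among the 11708 genes of the count table, and Emcn was read only in its promoter window. RNA was sequenced from 18 embryos at E13.5 of the FVB/ANTJ strain, 3 in each of 6 groups. The series holds a gtf2i comparison with the genotypes wt, gtf2i and gtf2i/gtf2i, and an ird1 comparison with the genotypes wt, ird1 and ird1/ird1, each referred to as a cross. Each cross had its own wt embryos. The labels name no allele beyond these words and give neither the kind of mutation nor the sex of the embryos. The mutant comparisons within a cross share the same 3 wt libraries, so they are not independent of each other.

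Blood vessels invade the embryonic brain from a plexus around the neural tube, guided largely by VEGF-A released from the neural tissue. VEGF-A signals through the receptor tyrosine kinase KDR (VEGFR2), while FLT1 (VEGFR1) binds the ligand tightly with weak kinase activity and limits how much reaches KDR. The angiopoietin receptor TEK (TIE2) and its relative TIE1 act in the maturation of vessels, and VE-cadherin, PECAM1, claudin-5 and ESAM join endothelial cells to each other. GTF2I (TFII-I) and GTF2IRD1 are related transcription factors encoded in the region deleted in Williams syndrome, and TFII-I has been studied as a regulator of the Kdr promoter.

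Promoter windows of Kdr, Tie1 and Cldn5 are shown because Kdr was the member whose libraries did not overlap between any genotypes of the gtf2i cross, while Tie1 and Cldn5 varied together between embryos. Each window holds the 250 bases before a RefSeq transcript start in GRCm38.p6, read 5′ to 3′ on the strand of the gene, and capitals mark GGAA, the core bound by ETS factors, or its complement TTCC. The Kdr window is chr5:75978456-75978705 on the minus strand, and the gene record has a further start 617 bases upstream of this one. The Tie1 window is chr4:118489850-118490099 on the minus strand and the Cldn5 window is chr16:18776597-18776846 on the plus strand.
Kdr: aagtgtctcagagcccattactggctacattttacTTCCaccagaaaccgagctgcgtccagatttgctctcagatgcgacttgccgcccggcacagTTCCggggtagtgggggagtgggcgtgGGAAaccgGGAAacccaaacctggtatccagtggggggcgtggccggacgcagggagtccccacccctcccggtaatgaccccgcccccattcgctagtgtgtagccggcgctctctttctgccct
Tie1: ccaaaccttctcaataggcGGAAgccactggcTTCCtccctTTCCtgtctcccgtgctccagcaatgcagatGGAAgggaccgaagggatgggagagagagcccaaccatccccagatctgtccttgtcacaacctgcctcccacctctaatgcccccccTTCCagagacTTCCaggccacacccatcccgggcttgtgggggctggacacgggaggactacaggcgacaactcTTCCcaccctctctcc
Cldn5: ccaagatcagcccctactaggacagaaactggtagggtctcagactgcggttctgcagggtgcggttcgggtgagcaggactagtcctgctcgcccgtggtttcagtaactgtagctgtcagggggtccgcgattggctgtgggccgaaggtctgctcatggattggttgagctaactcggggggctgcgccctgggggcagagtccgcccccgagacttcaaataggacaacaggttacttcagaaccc
The core occurred 4 times before Kdr, 7 times before Tie1 and 0 times before Cldn5. Windows were found for 7 of the 10 genes, and on either strand GGAA was present in 6 of these 7, against 93.4% of all 32851 RefSeq windows of this length. CANNTG, the E-box, was in 5 of 7 windows against 66.2% of all, and its palindromic form CACGTG, which is counted within it too, was in 0 of 7 against 6.02%. GGGCGG, the GC box, was in 3 of 7 against 32.7%, those of Kdr, Flt1 and Cldn5. GGATTA, a core reported for TFII-I family proteins, was in 0 of 7 against 6.25%. These shares describe letters in short windows and show no binding.

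The targeted genes were examined first. Gtf2i stood at 624 ± 30.7 CPM (counts per 1000000 of the scaled library total, mean ± SD, n = 3) in wt of the gtf2i cross, at 368 ± 6.23 CPM in gtf2i and at 82.5 ± 0.797 CPM in gtf2i/gtf2i. Gtf2ird1 transcripts averaged 98.2 CPM in wt of the ird1 cross (90.4 to 114), then 149 ± 1.93 CPM in the ird1 group and 223 ± 4.21 CPM in the ird1/ird1 group, so counts of this gene were higher and not lower in the mutants. Total counts ranged from 3239117 to 7371483 per library, with the lowest in replicate 2 of the ird1 cross wt. Members were covered by 62 to 909 counts per library. These 2 extremes were a Tek count and a Kdr count. Nothing in the labels says which embryos share a litter, so p-values measure the spread between these embryos.

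None of the 9 members passed an adjusted p of 0.05 in any of the 6 comparisons within a cross (edgeR quasi-likelihood test, Benjamini-Hochberg adjustment over all 11708 genes). Of the whole table, 0.94% of genes passed between gtf2i/gtf2i and wt, 0.00854% between gtf2i and wt, and 3.12% between gtf2i/gtf2i and gtf2i. For the ird1 cross these shares were 0.00854% between ird1/ird1 and wt, 0% between ird1 and wt, and 0% between ird1/ird1 and ird1. At an unadjusted p under 0.05, 0 of 9 members passed in the 4 comparisons with wt, where 14.4% (gtf2i/gtf2i), 1.6% (gtf2i), 16.1% (ird1/ird1) and 3.02% (ird1) of all genes did. DESeq2 called 0 members in these 6 comparisons too. All 36 confidence intervals (95%) of the differences from wt included 0. Their outermost bounds were a log2 fold change of -0.61 for Tek in ird1 and 0.51 for Flt1 in gtf2i/gtf2i, that is 0.654 and 1.42 times the wt level.

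**Figure D1:**
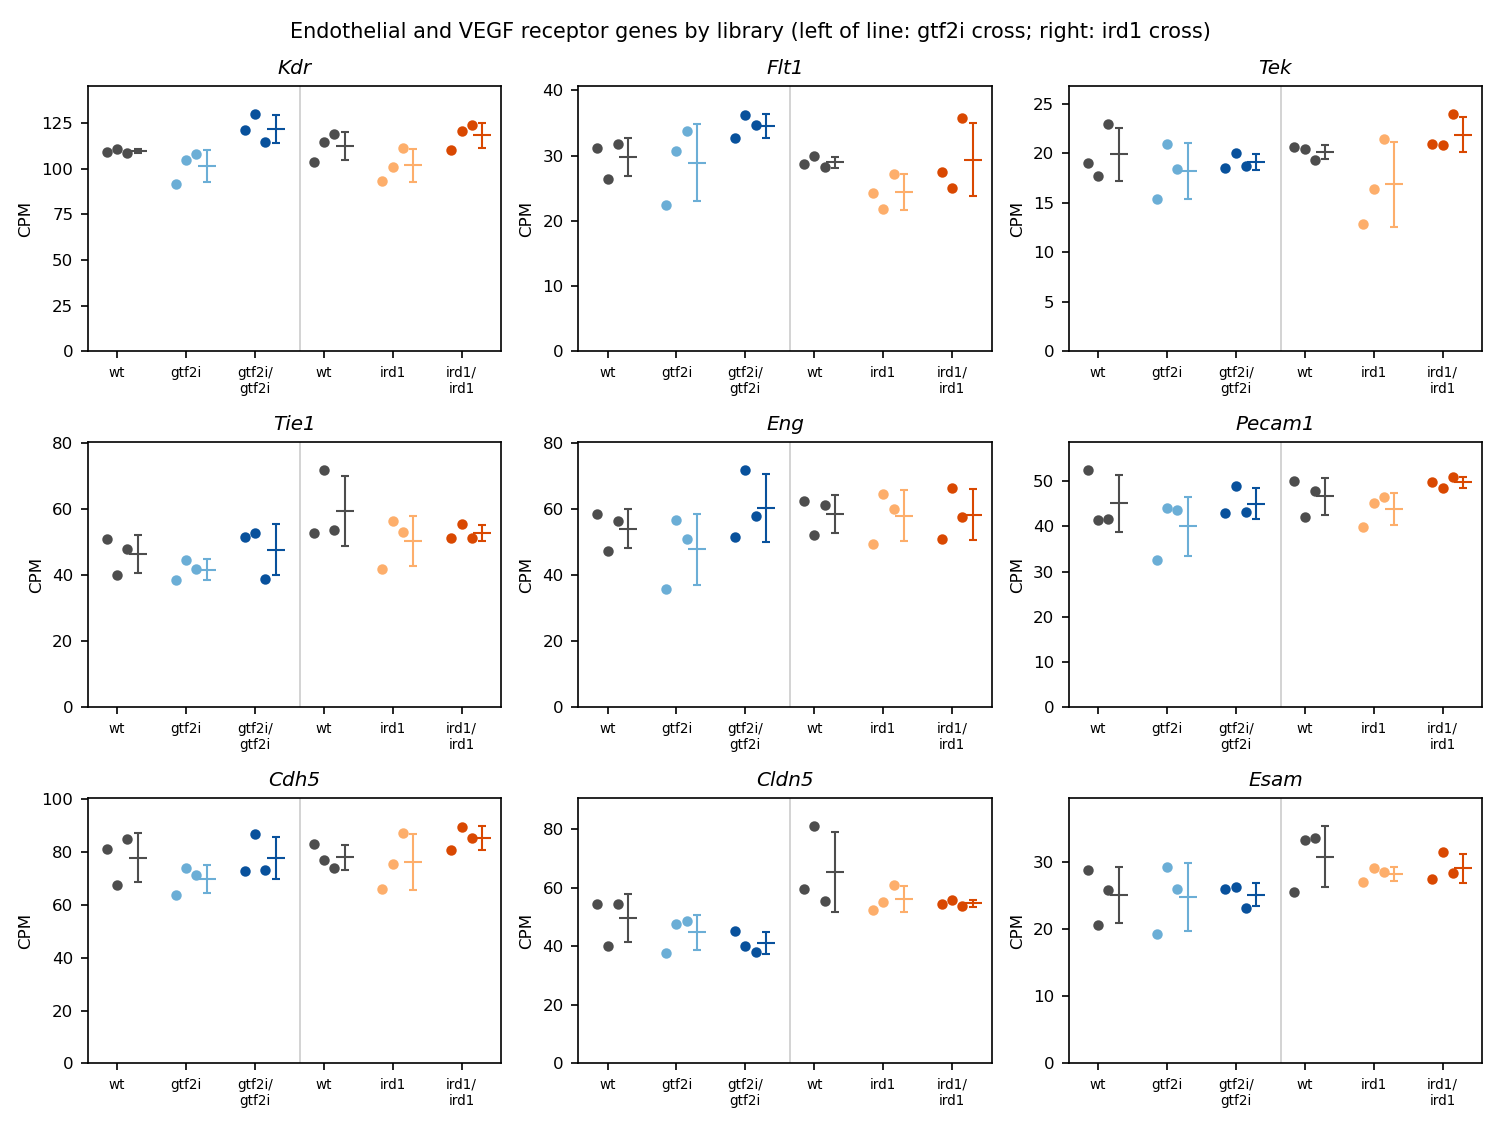
Level of each of the 9 genes in CPM (linear axis from 0) in the 18 libraries. Points are libraries, dashes with bars are group mean ± SD (n = 3). Kdr in the gtf2i cross runs from 91.5 to 130 CPM with no overlap between its 3 genotypes, and most other groups overlap.

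Kdr (ENSMUSG00000062960, chr5:75932827-75979072), which encodes the main signalling receptor for VEGF-A, had the most CPM of the members. Its levels in the gtf2i cross were 109, 111 and 109 CPM in wt, 91.5, 105 and 108 CPM in gtf2i, and 121, 130 and 115 CPM in gtf2i/gtf2i. The 3 genotypes did not overlap: every gtf2i library lay below every wt library, and every gtf2i/gtf2i library lay above. The gap between the highest gtf2i library and the lowest wt library was narrow, at 108.1 against 108.8 CPM. Libraries of gtf2i and wt did not overlap for 7.27% of all genes. The mean was 92.6% of wt in gtf2i and 111% of wt in gtf2i/gtf2i.

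As a log2 fold change, Kdr differed from wt by -0.11 (95% interval -0.30 to 0.07, adjusted p = 0.9999, edgeR) in gtf2i and by 0.14 (-0.04 to 0.33, adjusted p = 0.4999, edgeR) in gtf2i/gtf2i. The former was -0.04 without replicate 1 of gtf2i, and the latter 0.10 to 0.19 over the alternatives. The difference between the mutant genotypes was 0.26 (0.07 to 0.44), with an unadjusted p of 0.0110 and an adjusted p of 0.143 in edgeR's quasi-likelihood test. Of all genes, 16.5% had an unadjusted p under 0.05 in this comparison and 19.2% showed no overlap between the libraries. Without replicate 3 of gtf2i/gtf2i, the library of that genotype with the least Kdr, the difference was 0.30 with an edgeR adjusted p of 0.0422, the only single library whose removal changed the call. Calls over all genes went from 365 to 1376 of 11708 with the same removal. With the title number as a replicate block and the length trend removed it was 0.30 with an edgeR adjusted p of 0.0274, in a fit that called 1132 genes. Over the range of 16 alternatives the Kdr difference between mutant genotypes ran from 0.19 to 0.31, with edgeR or DESeq2 adjusted p from 0.0274 to 0.437.

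Embryos of the ird1 cross had Kdr at 104, 115 and 119 CPM in wt, 93.3, 101 and 112 CPM in ird1, and 111, 121 and 124 CPM in ird1/ird1. Here the groups overlapped in each comparison with wt. The log2 fold changes against wt were -0.14 (-0.34 to 0.07) in ird1 and 0.06 (-0.14 to 0.27) in ird1/ird1, and ird1/ird1 exceeded ird1 by 0.20 (-0.002495 to 0.40). The order of the group means from high to low was ird1/ird1, wt, ird1, and in the gtf2i cross gtf2i/gtf2i, wt, gtf2i, but the ird1/ird1 difference from wt was -0.04 with the length trend removed, so its direction turned. The test of the difference between the crosses gave 0.08 (-0.19 to 0.34) for the genotypes with both alleles named and 0.03 (-0.23 to 0.29) for those with 1 named, with edgeR adjusted p of 0.804 and 1. Over 20 alternatives the former ran from 0.03 (without replicate 2 of gtf2i/gtf2i) to 0.21 (length trend removed).

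Flt1 (ENSMUSG00000029648, chr5:147561604-147726438), the VEGF receptor that also acts as a trap for the ligand, was lower in level per length than Kdr. It was at 31.2, 26.4 and 31.8 CPM in wt of the gtf2i cross, 22.4, 30.7 and 33.7 CPM in gtf2i, and 32.6, 36.3 and 34.6 CPM in gtf2i/gtf2i. All gtf2i/gtf2i libraries lay above all wt libraries, while the gtf2i libraries spread across both. Flt1 and Kdr were the 2 of 9 members without overlap between gtf2i/gtf2i and wt, where 16.8% of all genes had none. The log2 fold change of Flt1 was 0.20 (-0.11 to 0.51, edgeR adjusted p = 0.60) in gtf2i/gtf2i. Over 16 alternatives it ran from 0.12 (without replicate 2 of wt) to 0.26 (without replicate 3 of wt). In gtf2i it was -0.04 (-0.35 to 0.27), running from -0.17 without replicate 3 to 0.11 without replicate 1, the libraries with the highest and lowest Flt1 of that genotype.

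Flt1 levels of the ird1 cross were 28.8, 29.9 and 28.2 CPM in wt, 24.3, 21.8 and 27.3 CPM in ird1, and 27.4, 25.1 and 35.7 CPM in ird1/ird1. All ird1 libraries lay below wt, while 7.04% of all genes had no overlap between these groups in either direction, and the difference of -0.24 (-0.55 to 0.07) had an edgeR adjusted p of 0.997. The ird1/ird1 group straddled wt with replicate 3 well above the other libraries of the genotype, and the mean difference was 0.01 (-0.30 to 0.31).

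The Tie receptors Tek and Tie1 both had the lowest group mean of each cross in gtf2i and in ird1. The order of wt and the genotype with both alleles named differed between them. Tek (ENSMUSG00000006386, chr4:94739086-94874976), the receptor for angiopoietins, had the lowest level of the members per kb of transcript. It was at 19.0, 17.8 and 22.9 CPM in wt of the gtf2i cross, 15.4, 21.0 and 18.4 CPM in gtf2i, and 18.6, 20.1 and 18.8 CPM in gtf2i/gtf2i. Its ird1 cross levels were 20.6, 20.4 and 19.3 CPM in wt, 12.9, 16.4 and 21.4 CPM in ird1, and 20.9, 20.8 and 23.9 CPM in ird1/ird1. The gtf2i cross groups overlapped, whereas ird1/ird1 lay just above wt in every library, and 26.9% of all genes had no overlap there in either direction. The log2 fold change in ird1/ird1 was 0.11 against wt (-0.25 to 0.46, edgeR adjusted p = 0.733) and 0.36 against ird1 (0.01 to 0.70, unadjusted p = 0.0445 and adjusted p = 0.766 in edgeR's test). Among all genes 4.66% had an unadjusted p under 0.05 in the latter comparison. Leaving out replicate 1 of ird1, the lowest Tek library of all, brought it to 0.20, and leaving out replicate 3 of ird1 brought it to 0.57.

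Tie1 (ENSMUSG00000033191, chr4:118471191-118489849), an orphan relative of TEK that modulates its signalling, was at 51.0, 40.0 and 48.0 CPM in wt of the gtf2i cross, 38.5, 44.7 and 42.0 CPM in gtf2i, and 51.5, 52.9 and 38.8 CPM in gtf2i/gtf2i. In ird1 cross embryos it was at 52.8, 71.7 and 53.7 CPM in wt, 41.9, 56.4 and 53.1 CPM in ird1, and 51.4, 55.5 and 51.4 CPM in ird1/ird1. Genotypes overlapped in both crosses. The log2 fold changes against wt were 0.02 (-0.26 to 0.31) in gtf2i/gtf2i and -0.16 (-0.46 to 0.14) in ird1/ird1. The first became 0.17 without replicate 3 of gtf2i/gtf2i, and the second became -0.02 without replicate 2 of the ird1 cross wt, the shallowest library.

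Eng (ENSMUSG00000026814, chr2:32646595-32682669) encodes endoglin, a co-receptor for BMP9 and TGF-beta on endothelium. It was at 58.5, 47.2 and 56.2 CPM in wt of the gtf2i cross, 35.7, 56.5 and 50.9 CPM in gtf2i, and 51.5, 71.6 and 57.7 CPM in gtf2i/gtf2i. The groups overlapped. Within each title number, which covers 1 library of each genotype, the gtf2i/gtf2i library had the most Eng: 71.6 against 58.5 (wt) and 50.9 (gtf2i) CPM for 11619, 51.5 against 47.2 and 35.7 CPM for 12301, and 57.7 against 56.2 and 56.5 CPM for 12419. Kdr and Flt1 were also highest in gtf2i/gtf2i within each number, and the share of all genes with this order is not given here. The log2 fold change of Eng in gtf2i/gtf2i against wt was 0.14 (-0.20 to 0.49, edgeR adjusted p = 0.775), and 0.15 with the number as a replicate block (edgeR adjusted p = 0.523). It was 0.01 without replicate 2 of gtf2i/gtf2i. Against gtf2i the difference was 0.33 (-0.02 to 0.67, edgeR adjusted p = 0.342), and 0.34 with the block (edgeR adjusted p = 0.0745). Without replicate 1 of gtf2i it was 0.16. In the ird1 cross the libraries ran from 49.5 to 66.2 CPM, with log2 fold changes against wt of -0.02 in each mutant genotype. The Eng gene overlaps Fpgs in the annotation, and the strand setting of the counting is not given in the sources used here, so reads of these genes may not be fully separated.

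None of the junction and adhesion genes among the members was called by edgeR in the 6 comparisons within a cross, where 0% to 3.12% of all genes were. Pecam1 (ENSMUSG00000020717, chr11:106654213-106715281), an adhesion receptor of endothelium and some blood cells, ranged from 32.5 to 52.4 CPM over the 18 libraries. Cdh5 (ENSMUSG00000031871, chr8:104101613-104144504), the VE-cadherin of adherens junctions, ranged from 63.9 to 89.7 CPM. Esam (ENSMUSG00000001946, chr9:37528089-37538319), an adhesion molecule of endothelial tight junctions, ranged from 19.3 to 33.6 CPM. Log2 fold changes of gtf2i/gtf2i against wt were -0.01 (-0.30 to 0.28) for Pecam1, -0.02 (-0.26 to 0.22) for Cdh5 and -0.01 (-0.36 to 0.34) for Esam. Those of ird1/ird1 against wt were 0.07 (-0.16 to 0.30), 0.12 (-0.12 to 0.35) and -0.08 (-0.36 to 0.21) in the same order. Pecam1 did not overlap between ird1/ird1 and ird1 (48.4 to 50.9 against 39.8 to 46.4 CPM), where 17% of all genes had no overlap.

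Cldn5 (ENSMUSG00000041378, chr16:18776847-18778262), the main claudin of the tight junctions that seal brain capillaries, was the member with the lowest estimate against wt in both genotypes with both alleles named. It was at 54.4, 40.0 and 54.4 CPM in wt of the gtf2i cross, 37.8, 47.7 and 48.8 CPM in gtf2i, and 45.4, 40.2 and 38.2 CPM in gtf2i/gtf2i. The ird1 cross had 59.6, 81.0 and 55.4 CPM in wt, 52.2, 55.3 and 61.0 CPM in ird1, and 54.3, 55.9 and 53.7 CPM in ird1/ird1. In each cross 1 wt library stood apart, low in the gtf2i cross and high in the ird1 cross, and the genotypes overlapped. The log2 fold changes were -0.28 (-0.58 to 0.02, edgeR adjusted p = 0.391) in gtf2i/gtf2i and -0.25 (-0.53 to 0.03, edgeR adjusted p = 0.333) in ird1/ird1. The latter was -0.08 without replicate 2 of the ird1 cross wt. With the title number as a replicate block and the length trend removed it was -0.12, above Tie1 (-0.20) and Flt1 (-0.14), so the rank did not hold there.

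**Figure D2:**
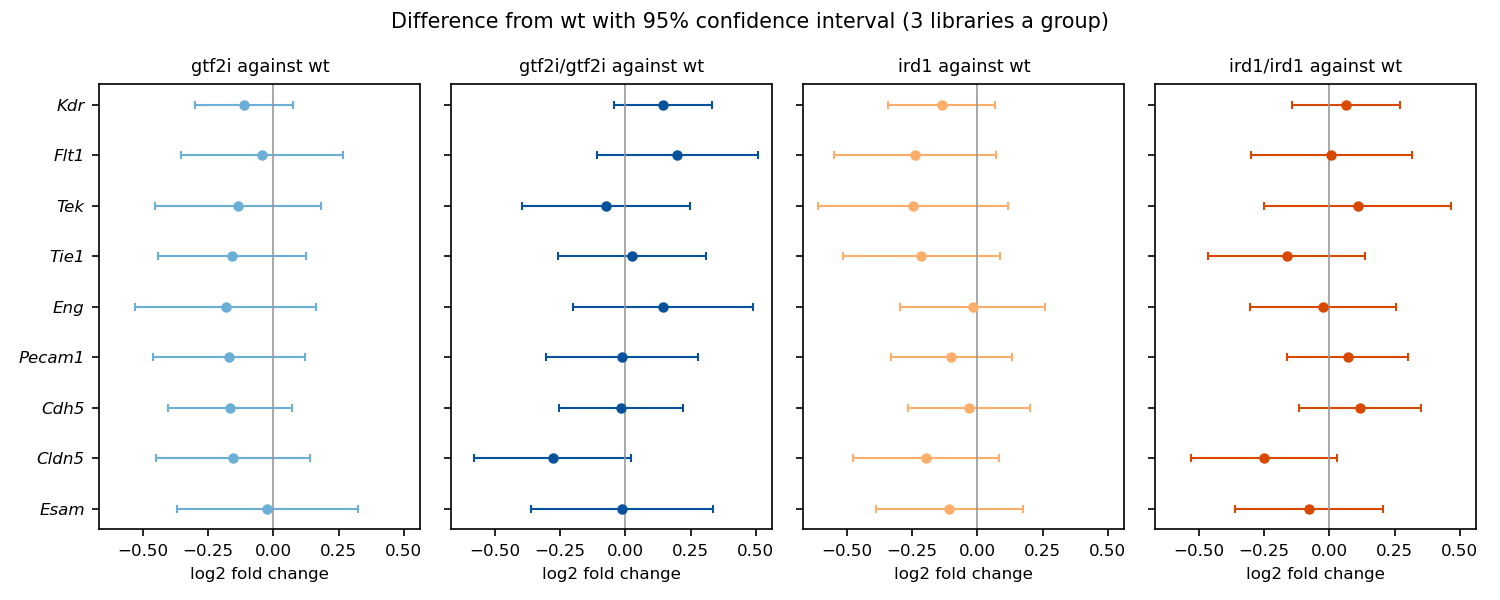
Log2 fold change of each gene against the wt of its own cross (point) with its 95% confidence interval (bar), 3 libraries a group, for the 4 mutant genotypes. All 36 bars cross 0, and in gtf2i and in ird1 all 9 points lie below 0.

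Compared with wt, 0 of 9 estimates were above 0 in gtf2i, where 49.6% of all genes were, and 0 of 9 in ird1, where 48.9% of all genes were. The median log2 fold changes of the members were -0.15 and -0.14. Those of all genes were -0.00115321 and -0.00422782. For gtf2i/gtf2i the median was -0.01 with 4 members above 0 (50.4% of all genes), and for ird1/ird1 it was 0.01 with 5 above 0 (49.5% of all genes). The members rise and fall together between embryos, so their signs are not separate observations. Single libraries moved the low medians: without replicate 1 of gtf2i the first was -0.04, and the second was -0.07 without replicate 1 of ird1 and -0.22 without replicate 1 of the ird1 cross wt. Replicate 1 of gtf2i was the lowest of the 18 libraries for 7 of 9 members (Kdr, Pecam1, Cdh5, Tie1, Cldn5, Eng and Esam). Summed over the members, levels were 357 to 453 CPM in gtf2i against 412 to 486 CPM in its wt, and 407 to 497 CPM in ird1 against 487 to 522 CPM in its wt. Between the mutant genotypes, 8 of 9 estimates were above 0 in gtf2i/gtf2i against gtf2i (51.5% of all genes), with a median of 0.16, and 7 of 9 in ird1/ird1 against ird1 (49.1% of all genes), with a median of 0.15. Without replicate 1 of gtf2i the first was 0.09, and without replicate 1 of ird1 the second was 0.06. In whole brain, fewer endothelial cells and less RNA per cell cannot be told apart.

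Lists of other genes were read in the same comparisons. In gtf2i against wt, 14 of 30 other endothelial markers were above 0 with a median of -0.02, as were 6 of 12 pericyte genes and 9 of 17 genes of meninges and mesenchyme. Fewer were above 0 among endothelial transcription factors (5 of 22, median -0.12), brain barrier and Wnt genes (5 of 22, median -0.07) and endothelial Notch genes (3 of 11, median -0.05). In ird1 against wt, 5 of 30 other endothelial markers were above 0 (median -0.15), and so were 1 of 12 pericyte genes (median -0.18) and 1 of 17 genes of meninges and mesenchyme (median -0.17). Above 0 were also 5 of 22 brain barrier and Wnt genes (median -0.09) and 4 of 11 endothelial Notch genes (median -0.14), while endothelial transcription factors had 12 of 22 (median 0.01). Low values in ird1 thus also occurred in lists of other cells. In ird1/ird1 against ird1, 16 of 17 genes of meninges and mesenchyme were above 0 with a median of 0.32, more than the 0.15 of the members, and 9 of 12 pericyte genes with a median of 0.15. Red blood cell genes went the other way in ird1 against wt, with 13 of 13 above 0 (median 0.15). In gtf2i against wt 4 of 13 were above 0 (median -0.11). None of these genes was called, and their part in the members' values was not tested.

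The effects of the crosses were set against each other as a difference of log2 fold changes. For gtf2i/gtf2i less ird1/ird1, 0 of 9 members passed adjusted (0.171% of all genes) or unadjusted (13% of all genes), and 5 of 9 differences were above 0 (48.4% of all genes). For gtf2i less ird1, 0 of 9 passed adjusted (0.0171% of all genes) or unadjusted (2.75% of all genes), and 6 of 9 were above 0 (51.8% of all genes). All 18 intervals included 0, with outermost bounds of -0.66 for Tek and 0.64 for Flt1. Precision differed between genes, and the Kdr intervals were narrower, at -0.19 to 0.34 and -0.23 to 0.29.

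Per kb of transcript the order of levels averaged over the 18 libraries was Cldn5 at 36.7 ± 7.23 CPM per kb, Cdh5 at 19.4 ± 1.95, Kdr at 18.7 ± 1.69, Eng at 16.4 ± 2.38, Esam at 14.6 ± 2.01, Pecam1 at 13.1 ± 1.42, Tie1 at 11.7 ± 1.91, Flt1 at 4.26 ± 0.634 and Tek at 4.16 ± 0.57 (SD over libraries). Cldn5 thus headed the order, Flt1 and Tek closed it, and the neighbours Cdh5 and Kdr, Kdr and Eng, Eng and Esam, Esam and Pecam1, Pecam1 and Tie1, and Flt1 and Tek each lay within their spread. No member was below 12.9 CPM in any library, but the deposited table holds only genes above a minimum count in every sample, so the presence of a gene in it is fixed by that filter.

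The wt groups of the crosses did not overlap in Cldn5 and Tie1, 2 of the 9 members. Both had less CPM in all 3 wt libraries of the gtf2i cross than in all 3 of the ird1 cross, and 32% of all genes had no overlap in either direction. The log2 fold changes were -0.37 (-0.67 to -0.08) for Cldn5 and -0.34 (-0.63 to -0.04) for Tie1, with unadjusted p of 0.0150 and 0.0287 and adjusted p of 0.088 and 0.115 in edgeR's test. Among all genes 32.7% had an unadjusted p under 0.05 and 0% an adjusted p under 0.05. DESeq2 gave Cldn5 -0.38 with an adjusted p of 0.0475, in a fit that called 1561 of the 6941 genes to which it gave an adjusted p. Without replicate 2 of the ird1 cross wt, the values were -0.20 for Cldn5 and -0.19 for Tie1, and without replicate 2 of the gtf2i cross wt they were -0.25 for each. Removing the trend with transcript length brought Cldn5, the shortest member, to -0.21. No title number is shared between the crosses, so what the number stands for and the cross cannot be told apart.

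**Figure D3:**
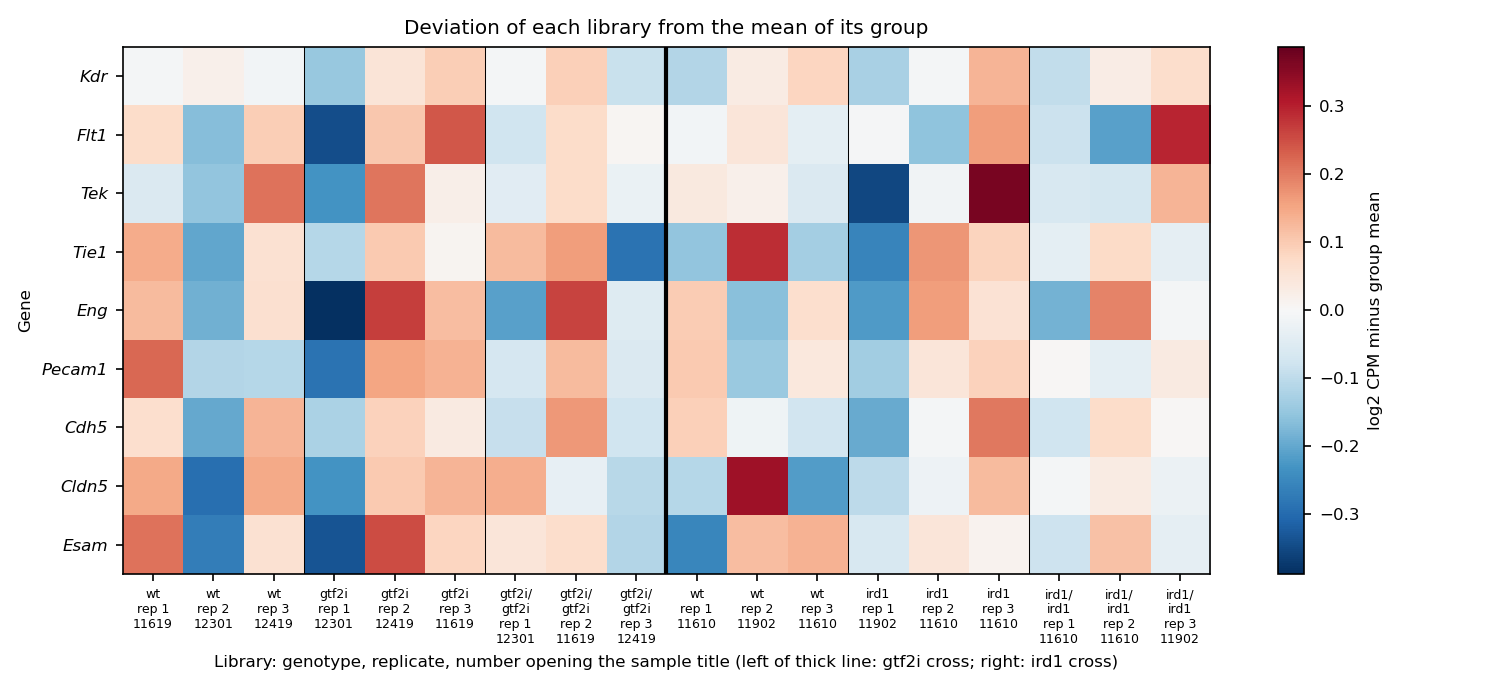
Deviation of log2 CPM from the group mean for the 9 genes (rows) in the 18 libraries (columns, with genotype, replicate and the number that opens the sample title). Red is above and blue below the group mean, and in some columns, such as replicate 1 of gtf2i, all 9 genes are below 0.

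The members varied together between embryos of the same group. Over the 36 pairs, Pearson's r of the deviations from the group means across 18 libraries (12 residual degrees of freedom) was above 0 in all, with a median of 0.52. All gene pairs of the table had a median of -0.000784, an upper quartile of 0.297 and a 95th percentile of 0.651. The highest values among the members were 0.82 for Tek and Cdh5, 0.80 for Eng and Pecam1 and 0.78 for Cldn5 and Tie1, and the lowest was 0.20 for Tie1 and Flt1. These correlations are descriptions over libraries that differ in depth and, in part, share title numbers. In the shallowest library, replicate 2 of the ird1 cross wt, Tie1 and Cldn5 deviated by 0.28 and 0.33 from their group means. With the title number removed too the median was 0.45, and with unscaled library totals it was 0.55. The genes of the table most like the mean of the members were Tnfaip8l1, Bsdc1, Lamb1, Cxcl12 and Cthrc1, each at r = 0.87 over 18 libraries. Those most like Kdr were Col6a3 at 0.84, Efemp2 at 0.83, Tmem132c at 0.82, and Pdia5 and Thbs1 at 0.81.

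Levels were also compared by the number that opens the sample titles, whose meaning the labels do not give. In the gtf2i cross each of 3 numbers covers 1 library of each genotype. Libraries with 12301 were low, with mean log2 deviations of -0.26 for Eng, -0.20 for Flt1, -0.19 for Esam and -0.16 for Pecam1, and those with 11619 were high, at 0.17 for Eng and 0.16 for Pecam1. An F test of the number with genotype in the model gave unadjusted p of 0.00334 for Eng, 0.0317 for Flt1 and 0.0359 for Pecam1, with edgeR adjusted p of 0.132, 0.228 and 0.236. Thus 3 of 9 members passed unadjusted, where 18.9% of all genes did, and 0 passed adjusted, where 0% did. For the number in the ird1 cross 0 of 9 passed unadjusted, where 6.01% of all genes did. For genotype, edgeR's F test gave Kdr an unadjusted p of 0.0345 and an adjusted p of 0.326 in the gtf2i cross. Kdr was the 1 member under 0.05 unadjusted, where 12.9% of all genes were. Adjusted, 0 of 9 members passed and 1.71% of all genes did, and in the ird1 cross 0 of 9 passed unadjusted, where 7.58% of all genes did.

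The partners of the VEGF receptors were not called either. Vegfa, the ligand of both receptors, was at 54.3 ± 7.51 CPM in wt of the gtf2i cross, 51.9 ± 8.11 in gtf2i and 68.9 ± 18.7 in gtf2i/gtf2i (SD, n = 3), and the log2 fold change of gtf2i/gtf2i against wt was 0.33 (-0.04 to 0.70, edgeR adjusted p = 0.421). Against gtf2i it was 0.39 (0.02 to 0.76), with an unadjusted p of 0.0418 and an adjusted p of 0.277 in edgeR's test. Of the 6 measured VEGF ligands and co-receptors, Vegfa was the 1 higher and Nrp2 the 1 lower at an unadjusted p under 0.05 there. Their list median was -0.09, and 16.5% of all genes passed this p. Vegfa means in the ird1 cross were 55.9, 54.3 and 54.4 CPM. Nrp1, the co-receptor neuropilin-1, and Flt4, the VEGF-C receptor, had log2 fold changes of -0.26 and 0.10 in gtf2i/gtf2i. Their values were 0.09 and 0.04 in ird1/ird1, and none was called. No gene was called by edgeR in any comparison among the 6 measured VEGF ligands and co-receptors, the 13 measured genes of the endoglin pathway, the 23 of signal transduction from VEGF receptors, or the 2 measured of 5 angiopoietin partners of the Tie receptors. Of all genes, 0% to 3.12% were called in these comparisons. In gtf2i/gtf2i against wt the medians of these lists were -0.06, 0.03, -0.06 and 0.39, with 0.0015952 for all genes.

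A few other endothelial genes did pass. Vwf, the von Willebrand factor stored in endothelial granules, was at 26.3, 25.1 and 25.6 CPM in wt of the gtf2i cross, 19.0, 30.5 and 29.6 CPM in gtf2i, and 46.4, 62.1 and 36.0 CPM in gtf2i/gtf2i. All gtf2i/gtf2i libraries lay above all others of the cross. Of all genes, 16.8% had no overlap between gtf2i/gtf2i and wt and 19.2% between gtf2i/gtf2i and gtf2i, in either direction. Against wt, Vwf rose by 0.88 (0.47 to 1.29) in log2 units (edgeR adjusted p = 0.0458), the 1 call among 30 other endothelial markers, whose median was 0.11, where 0.94% of all genes were called. The call was lost when any 1 of the 3 wt libraries was left out, without replicate 1 or replicate 2 of gtf2i/gtf2i, and with only the 6 libraries compared, with edgeR adjusted p up to 0.205. In ird1/ird1 Vwf differed from wt by -0.16 (-0.46 to 0.14), and the difference between the crosses was 1.04 (0.51 to 1.57) with an edgeR adjusted p of 0.0989.

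Between gtf2i/gtf2i and gtf2i, 3 of 22 endothelial transcription factors rose: Gata2 by 0.76, Mecom by 0.58 and Tal1 by 0.48 (log2; edgeR adjusted p of 0.0231, 0.0403 and 0.0388). Tal1 and Gata2 also act in blood formation and in neurons. Of 11 endothelial Notch genes 1 rose, Jag1 by 0.36 (edgeR adjusted p = 0.0401), and of 22 barrier and Wnt genes 3 rose, Jam2 by 0.61, Slc2a1 by 0.49 and Jam3 by 0.48. Jam2 and Jam3 encode junctional adhesion molecules, and Slc2a1 the glucose transporter of the brain barrier. Vwf rose by 0.85 in this comparison. Of all genes 3.12% (365) were called here, and 67 (without replicate 2 of gtf2i) to 1376 (without replicate 3 of gtf2i/gtf2i) were when 1 library was left out. Each of these 8 genes lost its call in 4 to 7 of 16 alternatives, always including removal of replicate 2 of gtf2i, of replicate 3 of gtf2i and of replicate 2 of gtf2i/gtf2i, with edgeR adjusted p up to 0.237. In gtf2i/gtf2i against gtf2i, 14 of 22 transcription factors were above 0 (median 0.09), 9 of 11 Notch genes (0.12) and 15 of 22 barrier and Wnt genes (0.14). At an unadjusted p under 0.05 (edgeR), 2 factors and 2 barrier and Wnt genes were lower, as were 9.39% of all genes. Against wt, 0 genes of these lists were called in gtf2i/gtf2i, where 0.94% of all genes were. None of the listed endothelial genes was called in gtf2i against wt or in the ird1 cross, where 0.00854% of all genes or fewer were. The transcription factor of the list with the lowest p in ird1/ird1 against wt was Erg, an ETS factor of endothelium, at a log2 fold change of 0.81 (0.32 to 1.30) with an edgeR adjusted p of 0.296. Of the 22 factors, 1 was higher (Erg) and 1 lower (Sox18) at an unadjusted p under 0.05 in edgeR's test, where 16.1% of all genes passed.

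**Figure D4:**
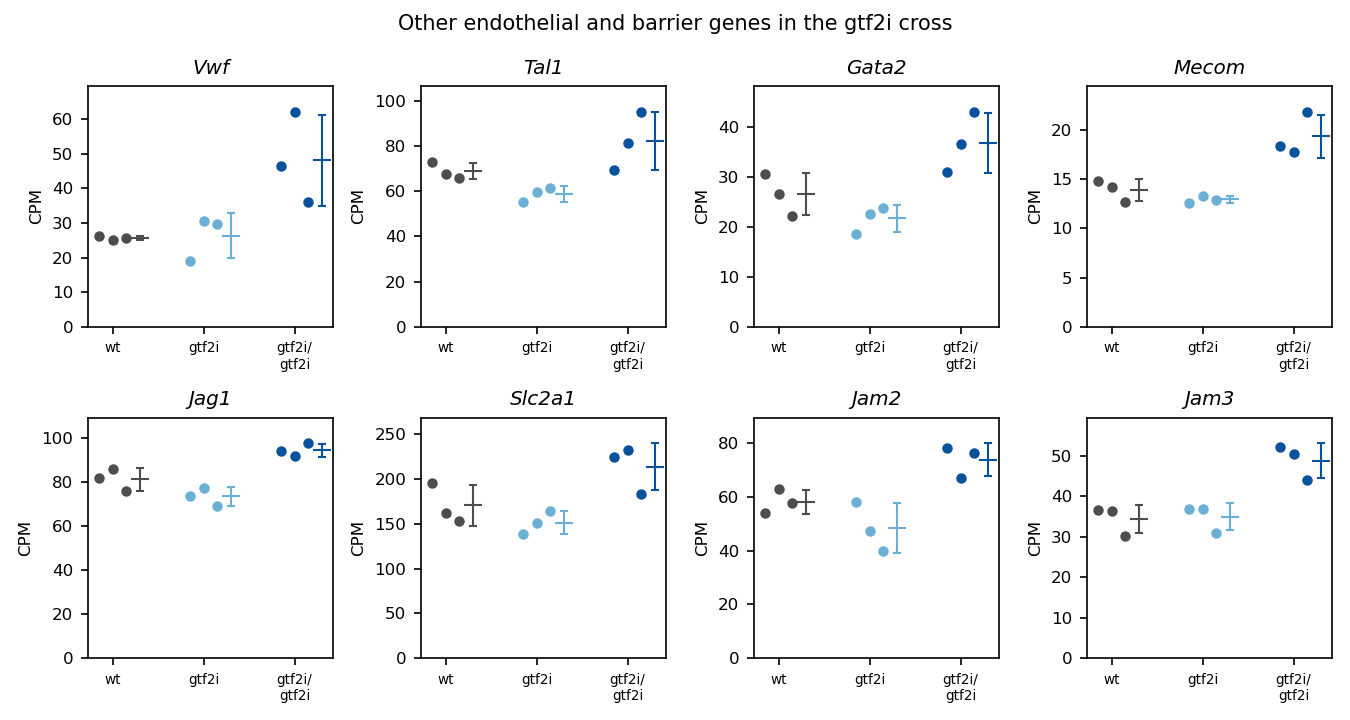
Level in CPM (linear axis from 0) of the 8 other endothelial and barrier genes called between gtf2i/gtf2i and gtf2i, in the 9 libraries of the gtf2i cross. Points are libraries, dashes with bars are group mean ± SD (n = 3). Each gene is higher in every gtf2i/gtf2i library than in every gtf2i library, and Vwf reaches 62.1 CPM in 1 library. The genes were chosen by their call in this comparison, where 19.2% of all genes had no overlap, so the separation is no further result.

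Markers of other cells moved in the same libraries. Summed levels of 13 red blood cell genes ran from 4308 to 5523 CPM in wt of the gtf2i cross, from 4007 to 4417 CPM in gtf2i and from 6035 to 9434 CPM in gtf2i/gtf2i, with no overlap between gtf2i/gtf2i and the other genotypes. Of these 13 genes, 2 rose in gtf2i/gtf2i against wt (Slc4a1 by 0.83 and Hbb-y by 0.76, edgeR adjusted p of 0.0379 and 0.0392) and 6 rose against gtf2i, with medians of 0.34 and 0.51 over the list, where 0.94% and 3.12% of all genes were called. Against wt both calls were lost without replicate 2 or replicate 3 of wt, without replicate 2 of gtf2i/gtf2i and with only the 6 libraries compared, and that of Slc4a1 also without replicate 1 of gtf2i/gtf2i. Against gtf2i, Slc4a1 kept its call in 16 of 16 alternatives, while Hba-a1 lost it in 6, Alas2 and Car2 in 5, Hba-x in 3 and Hbb-y in 2. Reads of the near-identical globin copies may not be fully separated. The 17 genes of meninges and mesenchyme summed to 1350 to 1582 CPM in wt, 1226 to 1771 CPM in gtf2i and 1476 to 2317 CPM in gtf2i/gtf2i, with 0 called against wt and 2 against gtf2i, Col5a2 and Lum, which lost their calls in 5 and 7 of 16 alternatives. Pericyte genes (12) summed to 437 to 533, 431 to 508 and 506 to 607 CPM and microglial genes (8) to 76.3 to 114, 84.3 to 113 and 104 to 125 CPM in the same order, with 0 called in each. Of 11 radial glia genes, 3 rose against gtf2i (Hes5 by 0.57, Vim by 0.40 and Nes by 0.36), losing their calls in 4, 4 and 7 of 16 alternatives. Of the 11, 7 were above 0 with a median of 0.12, and 2 were lower at an unadjusted p under 0.05 (edgeR), as were 9.39% of all genes. The radial glia list summed to 2513 to 2803 CPM in wt, 2613 to 2906 CPM in gtf2i and 3019 to 3411 CPM in gtf2i/gtf2i. Of 14 neuron genes 3 were above 0 against gtf2i, with a median of -0.21, and Mapt, a microtubule-binding protein of axons, fell by 0.70 on the log2 scale. Of 16 hypoxia genes Pdk1, which limits pyruvate use in mitochondria, rose by 0.54 and Ndrg1 fell by 1.48 against gtf2i on the log2 scale. Mapt and Ndrg1 lost their calls in 4 of 16 alternatives and Pdk1 in 5. In gtf2i/gtf2i against wt, 0 genes of the radial glia, neuron and hypoxia lists were called, where 0.94% of all genes were. The table's filter on low counts leaves no gene at 0, so absence of a cell type cannot be read from these lists. Their part in the values of Kdr, Vwf and the other endothelial genes was not tested.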

How the data were processed

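RNA-seq libraries of 18 whole brains at E13.5 were analysed, 3 in each of 6 groups. The series' 32 ChIP and input samples were left aside and not analysed here. Libraries were prepared with the NEBNext Ultra II kit after ribosomal RNA had been removed, per the labels' protocols. Whether the counting used strand is not given in the sources used here. Per the submitters' processing notes, Trimmomatic, STAR, HTSeq and the mm10 build were used, with no versions given. The authors deposited whole-number counts per gene for 11708 genes, with transcript lengths. The smallest count in a library was worth 2.9 to 3.09 CPM, so low genes had been left out of the table. Total counts were 3239117 to 7371483 per library (median 6212292).

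Counts were tested with edgeR 4.0.16 in R 4.3.3 (TMM scaling, filterByExpr, which removed 0 genes, and the quasi-likelihood test). The 9 libraries of a cross were fitted together, and all 18 for comparisons between crosses. Benjamini-Hochberg adjustment ran over all genes with a threshold of 0.05, and intervals are 95%. Alternatives were DESeq2 1.42.0, other scalings and filters, removal of the trend with transcript length, a replicate block, other sets of libraries, and leaving out each library. The scripts were checked on simulated counts.

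The 10 genes and all lists were chosen with earlier results of these data known, so no list is independent evidence. Named besides them are Gtf2i, Gtf2ird1, Vegfa, Nrp1 and Flt4, listed genes called over all genes, the gene of a list with the lowest p under 0.05 against wt, and the 5 genes most like the members' mean and the 5 most like Kdr. Not every gene that this rule allows is printed. List genes were matched by symbol, and 11704 gene identifiers were found in the name table. Gene positions and promoter windows come from RefSeq (GRCm38.p6).

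Sample titles open with a number that the labels do not explain. Between gtf2i/gtf2i and wt, deviations of libraries with the same number correlated over all genes at 0.377, 0.103 and 0.52. A pair with different numbers, replicate 1 of wt and replicate 1 of gtf2i/gtf2i, reached 0.203, so whether the number pairs libraries is not settled. It was used as a replicate block in alternatives only, and the main values come from fits without it. Same-number correlations were 0.28, 0.354 and 0.0485 between gtf2i and wt, and 0.114, 0.0576 and 0.0614 between gtf2i/gtf2i and gtf2i. With the number as a block, 0 members were called between gtf2i/gtf2i and wt, while calls over all genes went from 110 to 624.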

Additional observations from a re-analysis of the deposited data

How the results depend on the processing

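Over all alternatives, 1332 values of the 9 genes were computed, of which 3 were called, 23 moved by more than 1 standard error and 102 changed sign, none of them called. Between gtf2i/gtf2i and gtf2i, leaving out 1 library gave 0 to 1 members called, the 1 being Kdr without replicate 3 of gtf2i/gtf2i, and the replicate block with the length trend removed gave 1 (Kdr). Over all genes this comparison had 365 calls, and 67 (without replicate 2 of gtf2i) to 1376 (without replicate 3 of gtf2i/gtf2i) with 1 library left out. DESeq2 called 1 member, Cldn5, between the wt groups. With the title number as a replicate block alone, 0 members were called, while calls over all genes in the gtf2i cross went from 110 to 624 between gtf2i/gtf2i and wt and from 365 to 892 between gtf2i/gtf2i and gtf2i, and with the length trend removed too they were 860 and 1132. Same-number libraries of the ird1 cross correlated at -0.30 to 0.286 over 15 pairs, and the block gave 1, 0 and 0 calls there. Between gtf2i/gtf2i and wt, DESeq2 called 322 genes, the length trend removed gave 309, all 18 libraries 262 and only the 6 libraries compared 31. Leaving out 1 library gave 28 (without replicate 3 of wt) to 1159 (without replicate 3 of gtf2i/gtf2i). Between the wt groups DESeq2 called 1561 of 6941 genes against 0 in edgeR, and leaving out 1 library gave 0 to 2076 (without replicate 1 of the gtf2i cross wt). Members with 62 counts in a library are limited by counting error as well as by the 3 embryos a group.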
